A study of Mus musculus with 2 samples.

Results

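Granule-gene-high neutrophils are the gingival cells in which calprotectin transcripts, the cytosolic S100 proteins that mark neutrophils, were abundant together with transcripts of the granule proteins Ngp, Ltf and Camp. A cell was taken when it had at least 500 UMIs (unique molecular identifiers, each standing for 1 captured transcript), at least 200 genes and at most 15% mitochondrially encoded UMIs. It also needed at least 3% of its UMIs from S100a8 and S100a9 and at most 2 UMIs of C1qa, C1qb and C1qc, the neutrophil gate. Members were thus chosen by their measured UMIs: of the cells in that gate, those with at least 5 UMIs of Ngp, Ltf and Camp together (granule UMIs below), under 5 UMIs of Rsad2, Ifit1, Ifit2 and Ifit3, and under 10 Spp1 UMIs per 10000 were kept. The rule found 150 of 21208 cells past the filters. They were 41 of 4551 neutrophil-gate cells in the diabetic library and 109 of 4901 in the normoglycemic library.

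The study asked how diabetes alters the response of the gingiva in periodontitis. The diabetic mice had been given streptozotocin, which destroys insulin-producing beta cells, and the other group was normoglycemic. Both groups carried the genotype CD11CCre-/-;FoxoLL, floxed Foxo without the Cre driver, and the labels describe bacterial inflammation kept up for 2 weeks and then 2 weeks of waiting. Cells came from 4 pooled mice per group and made 1 library each, after DAPI+, CD31+ and Ter-119+ cells had been removed and CD45+ cells taken, with a 20% enrichment of CD11c+CD45+ cells. Strain, age and sex of the mice were not given in the sources used here. With 1 library per group there is no replicate check and no test, and every difference below compares those libraries. All intervals are 95% intervals that cover counting error only, save those of list medians, which rest on the spread of the genes within a list.

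Neutrophils load their granules in order while they mature in bone marrow. Primary (azurophil) granule proteins such as myeloperoxidase and neutrophil elastase are made at the promyelocyte stage, and secondary (specific) granule proteins such as lactoferrin (Ltf), cathelicidin (Camp), neutrophilic granule protein (Ngp) and lipocalin 2 (Lcn2) at the myelocyte and metamyelocyte stages, under the control of the transcription factor C/EBP epsilon. Tertiary granule and secretory vesicle genes such as Mmp9 and Retnlg follow. Segmented neutrophils in tissue usually hold the proteins but little of the secondary granule mRNA. Lactoferrin and lipocalin 2 are also made by secretory epithelium, and Lcn2 is an NF-kB target that activated neutrophils transcribe again.

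The 3 genes of the rule lie near each other. In the mm10 build (GRCm38), with GENCODE M21 positions, Camp occupies chromosome 9 from 109847379 to 109849617 on the minus strand, Ngp from 110419747 to 110423012 and Ltf from 111019271 to 111042767, both on the plus strand. The stretch from the start of Camp to the end of Ltf spans 1195389 bases and holds 31 protein-coding genes. Upstream sequence of each is shown because these are the genes that chose the cells. It was taken from the RefSeq windows (GRCm38.p6) of 250 bases before the RefSeq start, which lies 61 bases after the GENCODE start for Ngp, 21 after it for Ltf and 161 after it for Camp. Each window was therefore ended at the base before the GENCODE start, so that no annotated exon is printed. The pieces are chr9:110419558-110419746 for Ngp, chr9:111019042-111019270 for Ltf and chr9:109849618-109849706 for Camp, 5′ to 3′ on the strand of the gene. Capitals mark the letters TTNNGCAA on either strand, a form of the C/EBP core.
Ngp: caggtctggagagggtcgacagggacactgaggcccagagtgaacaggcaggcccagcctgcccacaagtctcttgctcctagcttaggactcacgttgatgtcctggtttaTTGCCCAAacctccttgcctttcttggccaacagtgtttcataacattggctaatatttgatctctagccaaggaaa
Ltf: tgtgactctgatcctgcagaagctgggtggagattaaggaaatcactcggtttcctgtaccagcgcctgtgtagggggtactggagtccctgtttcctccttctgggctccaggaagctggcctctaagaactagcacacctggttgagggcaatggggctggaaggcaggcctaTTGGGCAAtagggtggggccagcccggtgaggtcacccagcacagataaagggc
Camp: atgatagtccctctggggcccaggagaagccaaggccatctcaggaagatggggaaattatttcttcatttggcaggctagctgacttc
The 189 bases of Ngp held 1 match, beginning 77 bases before the GENCODE start, and the 229 bases of Ltf held 1, beginning 54 bases before it. The 89 bases of Camp held none. Of 32851 RefSeq windows ended at the same base as each of these, 7.76% held the letters at the length of Ngp, 9.02% at that of Ltf and 3.68% at that of Camp. A match describes the sequence and shows no binding.

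The diabetic library had 78220582 gene UMIs over 10496 barcodes, and the normoglycemic library 89339733 over 11280. Of 32 barcodes found in both libraries, 0 belonged to granule-gene-high cells. The granule-gene-high cells had a median of 6682 UMIs in the diabetic and 5021 in the normoglycemic library, and the remaining neutrophils (same gate and limits, under 5 granule UMIs; 3935 diabetic and 3700 normoglycemic cells) had 3516 and 4052. As a background for free RNA, 2 of 161 diabetic and 2 of 290 normoglycemic B cells (median 4466 and 4681 UMIs) had any granule UMI, or 1.24% and 0.690%, and none had 5. Outside the gate, 27 diabetic and 12 normoglycemic cells had 5 or more. In 24 of those 27 diabetic cells nearly all were Ltf, from 4 to 801 UMIs, and 23 of them also held at least 5 UMIs of epithelial markers. Sex was called per cell, as male where the Y-linked genes Uty, Ddx3y, Kdm5d or Eif2s3y had UMIs without Xist and as female in the opposite case, and both pools held cells of either call. Of the granule-gene-high cells, 10 were called female and 12 male in the diabetic library, against 1 and 51 in the normoglycemic library. Among the remaining neutrophils the calls were 186 and 1485 in the diabetic library, against 47 and 1887 in the normoglycemic library. Of the cells with 100 or more granule UMIs, described below, 6 were called female and 0 male in the diabetic library, against 0 and 1 in the normoglycemic library. The part of sex in the differences below was not tested, apart from the values for male cells alone in the closing section.

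The cells were of very unequal kinds, and the name immature neutrophils held for few of them. Granule UMIs ran from 5 to 2119 per cell in the diabetic library with a median of 17, and to 2859 in the normoglycemic library with a median of 8. In the diabetic library 14 cells had 5 to 9, 14 had 10 to 29, 5 had 30 to 99 and 8 had 100 or more, against 67, 36, 4 and 2 in the normoglycemic library. The cells with 100 or more held 94.2% of the granule UMIs of all diabetic and 79.0% of those of all normoglycemic granule-gene-high cells. Ngp, Ltf and Camp were found together in 7 diabetic and 6 normoglycemic cells. Ngp alone was found in 24 of 41 diabetic cells and 41 of 109 normoglycemic cells, Ltf alone in 3 and 17, and Camp alone in 0 and 9. Markers of immaturity that the rule did not use were as sparse. Fcnb, a ficolin of early neutrophil precursors, had a UMI in 4 diabetic and 2 normoglycemic cells, Cebpe in 5 and 4, and the proliferation gene Mki67 in 4 and 2. Most of the cells are therefore called here by the rule alone, as granule-gene-high neutrophils.

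**Figure D1:**
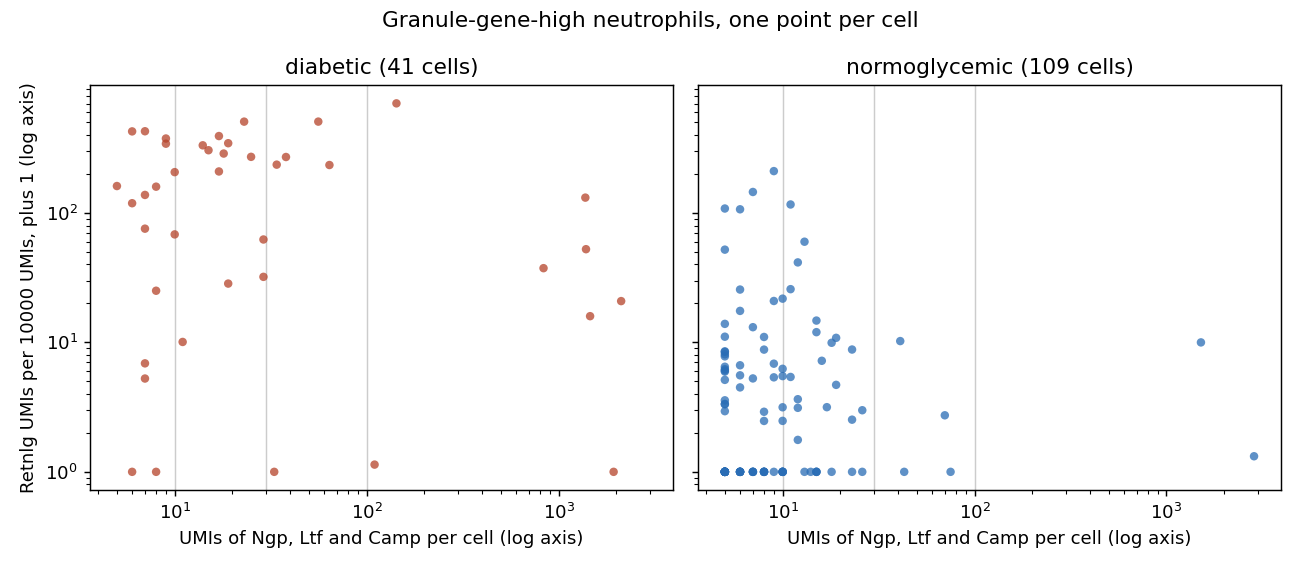
Each point is 1 granule-gene-high cell, with its granule UMIs (Ngp, Ltf and Camp, log axis) across and its Retnlg UMIs per 10000 UMIs plus 1 (log axis) up, for the diabetic library on the left and the normoglycemic library on the right; grey lines mark 10, 30 and 100 granule UMIs. Above 500 granule UMIs stand 6 diabetic and 2 normoglycemic cells, and among the rest most diabetic cells lie above most normoglycemic cells in Retnlg.

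Most of the cells with 100 or more granule UMIs, 8 diabetic and 2 normoglycemic, carried the secondary granule programme. In 6 diabetic cells Ngp had 574 to 1049 UMIs, Ltf 70 to 263 and Camp 191 to 966, and in the 2 normoglycemic cells Ngp had 1460 and 840, Ltf 259 and 123, and Camp 1140 and 549. These values are those that chose the cells. Other genes of the programme, which the rule did not use, also had UMIs in all of the same 6 and 2 cells. Lcn2, which sequesters bacterial siderophores, had 225 to 344 UMIs in the diabetic and 429 and 293 in the normoglycemic cells. Per 10000 UMIs, Lcn2 was 129 to 455 in these diabetic cells, against a median of 67.0 in diabetic cells with 5 to 99 granule UMIs. In the normoglycemic cells it was 137 and 132, below the corresponding median of 223. Chil3, the chitinase-like protein Ym1, had 57 to 234 in the diabetic and 321 and 92 in the normoglycemic cells, Ly6g had 8 to 32 and 22 and 22, and Cd177, a neutrophil surface glycoprotein, 6 to 16 and 21 and 13. No order between the libraries can be read from 6 and 2 cells.

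Within these cells the stage markers differed from cell to cell. Diabetic cells 1 and 2 and normoglycemic cell 1 had UMIs of the cycling genes Mki67 (6, 5 and 32) and Top2a (1, 6 and 37), while diabetic cells 3 to 6 and normoglycemic cell 2 had 0 of both. Fcnb was found in diabetic cells 1 to 3 (10, 24 and 2 UMIs) and in both normoglycemic cells (5 and 2). Mmp8 and Mmp9, the collagenase and gelatinase of neutrophil granules, stood at 50 and 57 UMIs in diabetic cell 4 and at 0 in diabetic cells 1 and 2. Retnlg ran from 0 to 176 UMIs in the 6 diabetic cells and was 1 and 20 in the normoglycemic cells. Il1b, the inflammatory cytokine, had 247 UMIs in diabetic cell 6 and 117 and 97 in the normoglycemic cells, but 0 to 4 in the other 5 diabetic cells. One more diabetic cell of this kind, with 1677 Ngp, 220 Ltf and 1224 Camp UMIs, lay outside the rule through its Spp1 limit.

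The last 2 diabetic cells were unlike the others. Diabetic cell 7 had 73 Ngp, 70 Camp and 0 Ltf UMIs with 485 Retnlg UMIs, and diabetic cell 8 had 107 Camp, 3 Ngp and 0 Ltf UMIs. Diabetic cell 8 carried the primary granule genes, with 344 UMIs of Mpo (myeloperoxidase), 858 of Elane (neutrophil elastase), 835 of Prtn3 (proteinase 3), 512 of Ctsg (cathepsin G) and 132 of Ms4a3, a granulocyte and monocyte progenitor gene. The other diabetic cells of this tier held at most 9 UMIs of any of the 5, and the normoglycemic cells at most 1. Diabetic cell 8 also had 21 Mki67, 19 Top2a and 11 Cebpe UMIs, and its calprotectin share of 3.88% was just above the gate. With 72764 UMIs and 6493 genes it made up 19.7% of all UMIs of the diabetic granule-gene-high cells, so summed values are given below with and without the cells of this tier.

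**Figure D2:**
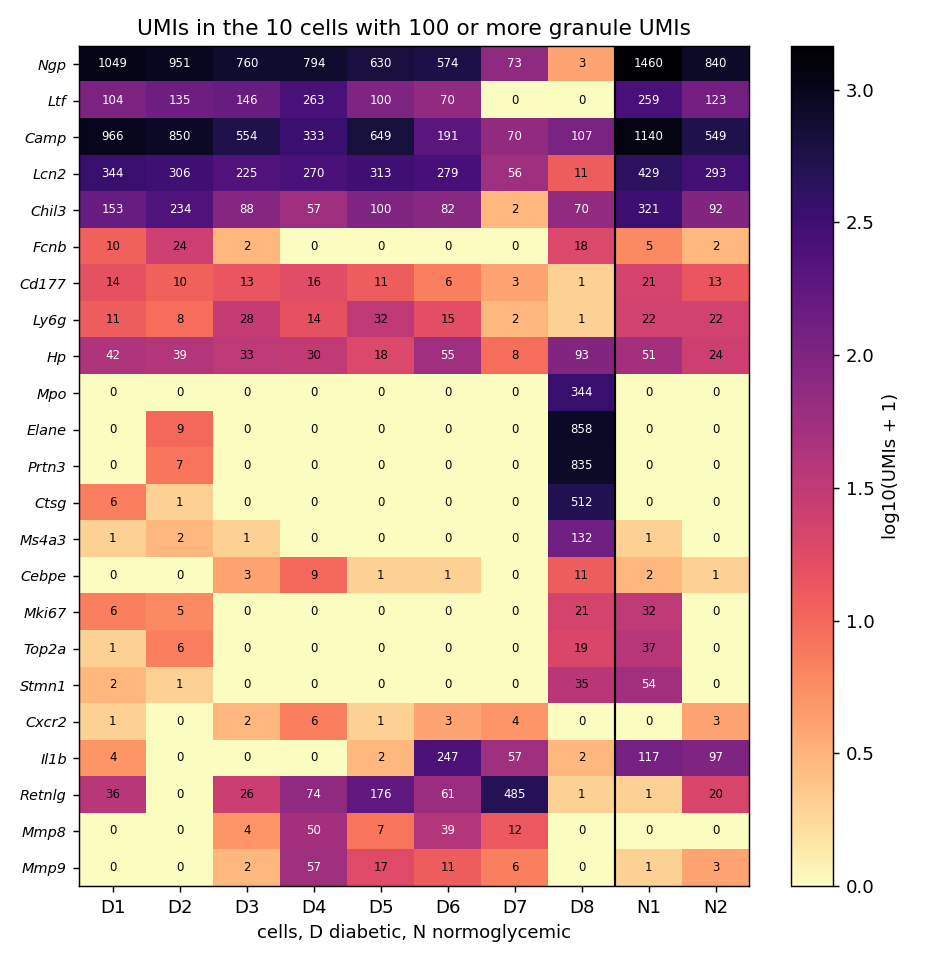
UMIs of granule, stage, cycling and inflammatory genes (rows) in each cell with 100 or more granule UMIs (columns; D1 to D8 diabetic, N1 and N2 normoglycemic), printed in each square and coloured by log10(UMIs + 1). The secondary granule genes fill D1 to D6, N1 and N2, the primary granule genes stand almost wholly in D8, and Retnlg is highest in D7 at 485 UMIs.

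The diabetic library had the lower share of granule-gene-high cells, 0.901% (0.647 to 1.22) of neutrophil-gate cells against 2.22% (1.83 to 2.68) in the normoglycemic library, a difference of -1.32 points (-1.83 to -0.829). The difference lay in the cells with few granule UMIs. Cells with 5 to 9 made up 0.308% (0.168 to 0.516) in the diabetic and 1.37% (1.06 to 1.73) in the normoglycemic library. Cells with 10 to 29 made up 0.308% (0.168 to 0.516) and 0.735% (0.515 to 1.02). At 30 to 99 granule UMIs the difference was 0.0283 points (-0.114 to 0.184), within counting error. At 100 or more the share was 0.176% (0.0759 to 0.346) in the diabetic and 0.0408% (0.00494 to 0.147) in the normoglycemic library, and the difference of 0.135 points (-0.00341 to 0.308) was not separable from 0 at this number of cells. At 20 or more granule UMIs the difference was 0.149 points (-0.0767 to 0.394), so no threshold gave a higher diabetic share beyond counting error. Just inside the rule, with exactly 5 granule UMIs, stood 1 diabetic and 33 normoglycemic cells, and just outside, with 4, stood 13 and 20. Since a fixed number of UMIs is reached more easily by deeper cells, a threshold of 10 granule UMIs per 10000 was also taken, which gave 52 diabetic and 96 normoglycemic cells and a difference of -0.816 points.

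Setting granule-gene-high cells against the remaining neutrophils describes what the rule chose and tests nothing, since every gene of a cell stands with the genes that chose it. Counts were summed over cells and given as CPM (counts per 1000000 UMIs of those cells), and a gene was called when its 95% interval lay wholly beyond 1.5-fold with at least 50 CPM and 50 counts on the higher side. In a set with few UMIs, 50 counts stand for more than 50 CPM. Genes higher in such a set are therefore called less easily than genes lower in it. In the diabetic library 269 of 1599 genes (16.8%) were called higher and 275 (17.2%) lower in granule-gene-high cells than in the remaining neutrophils, and in the normoglycemic library 99 of 1564 (6.33%) higher and 161 (10.3%) lower. In the diabetic library the split depends on the scaling: TMM, which moved all log2 ratios by -0.93, gave 144 higher and 920 lower, and the median of ratios, with a shift of -0.97, gave 138 and 946. Among genes outside the rule, the ratio was high in both libraries for Chil3, at 16.3 (14.97 to 17.7) in the diabetic and 32.5 (28.0 to 37.7) in the normoglycemic library. Ly6g followed at 5.93 and 4.39, and Ly6c2, a surface protein of monocytes and young neutrophils, at 12.8 (10.8 to 15.1) and 3.89 (2.84 to 5.24). The normoglycemic Ly6c2 value rested on 51 UMIs in 4 of 109 cells, and was 1.31 with every cell weighted the same. Cybb, the catalytic subunit of the NADPH oxidase, stood at 6.35 (5.40 to 7.43) and 2.39 (2.02 to 2.80). The chromatin gene Hmgn2, the annexin Anxa3, the peroxidase Gpx1, Aldh2, Syne1, Dstn and Wfdc21 were also among the leading genes, with ratios from 1.97 to 8.50 over both libraries.

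These ratios rested on the cells with 100 or more granule UMIs for some of the genes. In the cells with 5 to 99, Chil3, Cybb and Hmgn2 were called higher in neither library. Ly6c2 and Aldh2 were not among the genes called higher in both libraries. Gpx1 and Wfdc21 were still called in both, Ly6g in the diabetic library at 3.40, and Syne1, Anxa3 and Dstn in the normoglycemic library at 2.82, 2.45 and 2.05. Chil3 stood at 4720 CPM in that tier in the diabetic and 7714 in the normoglycemic library, but at 13.1 and 12.1 CPM in the cells with 5 to 9, below the 132 and 17.7 CPM of the remaining neutrophils. Lcn2 behaved otherwise. It stood at 8999, 10197, 11828 and 10833 CPM in diabetic cells with 5 to 9, 10 to 29, 30 to 99 and 100 or more granule UMIs, against 3694 CPM in the remaining diabetic neutrophils. In the normoglycemic library it stood at 21834, 19608, 38250 and 13485 CPM, against 7073 CPM. Lcn2 was thus above the remaining neutrophils at every granule level, and higher in normoglycemic cells at each level up to 99 granule UMIs. At 100 or more the order depends on the weight of the cells, since the mean of the cells' own levels was 18037 CPM in the diabetic and 13442 CPM in the normoglycemic library. Thinned to 1000 UMIs per cell, 92.7% (80.1 to 98.5) of diabetic and 100% (96.7 to 100) of normoglycemic granule-gene-high cells kept an Lcn2 UMI, against 67.1% and 72.0% of the remaining neutrophils and 4.35% and 5.90% of B cells. Unthinned, the granule-gene-high shares were 97.6% and 100%.

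Leaving out the tier of 100 or more, which keeps a set of 33 diabetic and 107 normoglycemic cells taken after the values were seen, lowered the number of called genes in the diabetic library and hardly changed it in the normoglycemic library. In the diabetic library 38 of 1521 genes (2.50%) were called higher and 66 (4.34%) lower, and in the normoglycemic library 101 of 1552 (6.51%) higher and 165 (10.6%) lower. Called higher in both libraries were 6 genes: Ngp itself, Lcn2, Gpx1, S100a6, Wfdc21 and AA467197. Called lower in both were 18. They included Il1b, at a ratio of 0.615 in the diabetic and 0.629 in the normoglycemic library, the prostaglandin synthase Ptgs2 at 0.437 and 0.356, and the neutrophil chemoattractants Cxcl1 at 0.300 and 0.548 and Cxcl3 at 0.438 and 0.523. The MHC class II genes Cd74, H2-Aa and H2-Ab1 were among them too, at 0.107 to 0.475, which are markers of other cell types in these libraries.

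**Figure D3:**
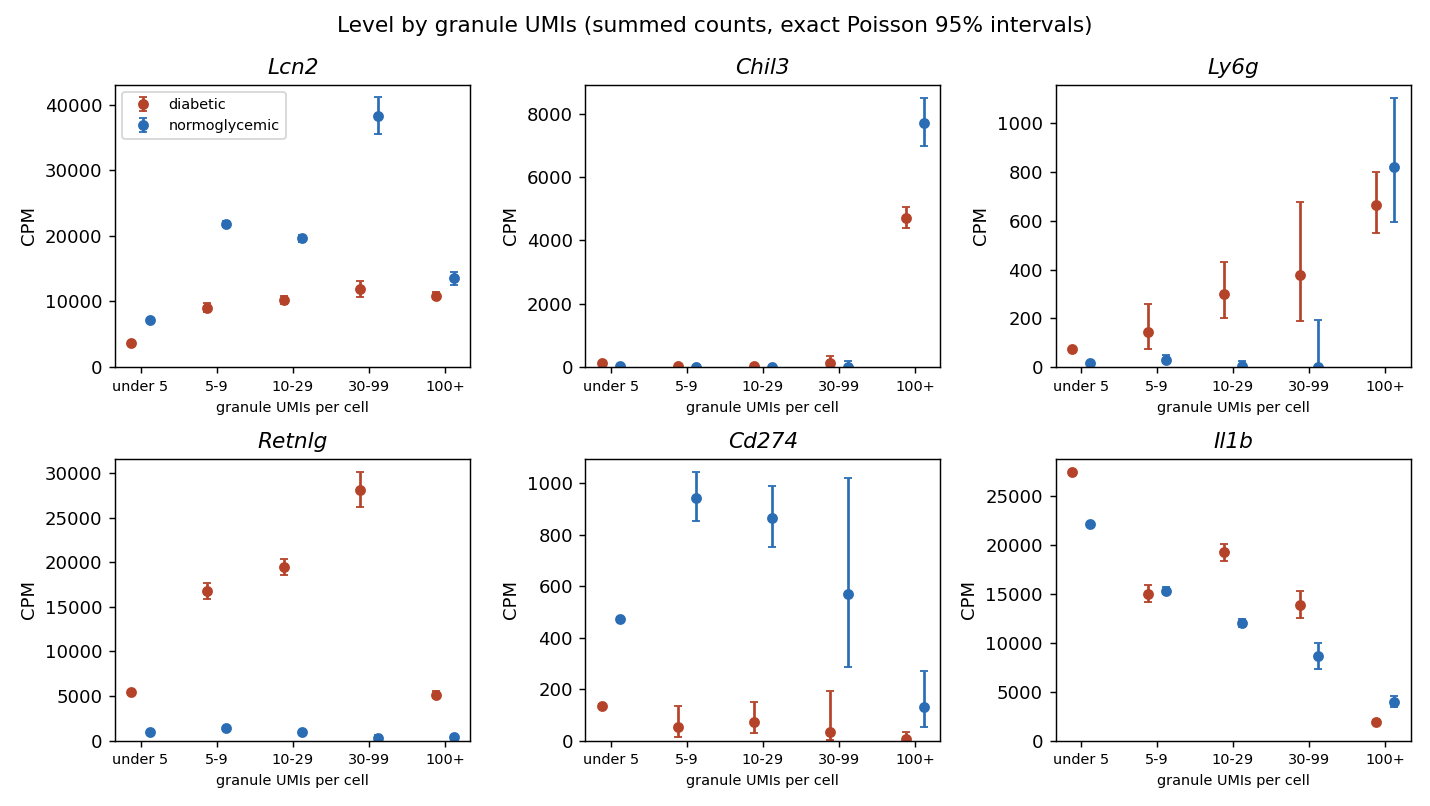
Level of 6 genes in CPM (summed counts, bars are exact Poisson 95% intervals) by granule UMIs per cell, with the remaining neutrophils at the left of each panel, for the diabetic (red) and normoglycemic (blue) library. Lcn2 is above the remaining neutrophils at every level, Chil3 stands out only at 100 or more, Retnlg is higher in the diabetic and Cd274 in the normoglycemic library at all 5 levels, and Il1b is lowest at 100 or more.

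Over all granule-gene-high cells, 359 of 1343 genes (26.7%) were called higher and 337 (25.1%) lower in the diabetic library, but the sums differ in make-up. Diabetic cell 8 alone supplied 858 of 867 Elane, 835 of 842 Prtn3, 512 of 519 Ctsg, 344 of 345 Mpo and 132 of 136 Ms4a3 UMIs. The normoglycemic sums held 0 UMIs of Elane, Prtn3, Ctsg and Mpo and 1 of Ms4a3. The chemokine Cxcl10 (169 of 173 UMIs), the histone genes Hist1h1b (245 of 254) and Hist1h2ap (236 of 257), Vcam1 (52 of 52), Stfa1 (59 of 60) and Gm26917 (138 of 193) each came mostly from 1 diabetic cell, not always the same one. The 138 Gm26917 UMIs lay in a cell with 5 to 99 granule UMIs. Of the 12 leading higher genes only Mmp8 was spread over cells, with 379 UMIs in 29 diabetic cells against 42 in 8 normoglycemic cells. The median log2 ratio over 5885 genes was 0.99. That is the log2 ratio of the UMI totals, 730619 normoglycemic to 368855 diabetic, since the median gene had equal raw counts in both. It is therefore no background for well-expressed genes. A scaling by the median of ratios moved all values by -0.99 and so set raw counts side by side, giving 169 higher and 714 lower. TMM moved them by -0.74, giving 225 and 633. Values are therefore given below for the cells with 5 to 99 granule UMIs, 202320 diabetic and 677079 normoglycemic UMIs, with the remaining neutrophils of the same libraries beside them.

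In the cells with 5 to 99 granule UMIs, the genes called higher in the diabetic library included Retnlg, Mmp8, Mmp9 and Cxcr2, and those called lower included Cd274, Tnf, Ccl3 and Bcl2a1b. Of 1120 genes, 121 (10.8%) were called higher and 223 (19.9%) lower, against 122 (7.35%) and 217 (13.1%) of 1660 in the remaining neutrophils. The minimum count for a call stands for a higher CPM in the diabetic cells, whose UMIs were fewer. Genes of low level could therefore be called lower but not higher. In the remaining neutrophils, with 15330850 diabetic and 17829387 normoglycemic UMIs, the minimum CPM was the stricter limit in either direction. How far this shaped the excess of lower calls was not tested. Over the 4437 genes with at least 10 CPM, the set from which the lists below are drawn, 121 were called higher and 223 lower, and the median log2 ratio was 0.31, against 0.06 in the remaining neutrophils. A level of 10 CPM takes fewer counts in the diabetic than in the normoglycemic cells. Genes with few counts can therefore enter through the diabetic side at a high ratio. How far this moved the medians was not tested. Most differences named below had the same direction in the remaining neutrophils, and whether the ratio in granule-gene-high cells differs from theirs was not tested.

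Secondary granule genes outside the rule went both ways. Lcn2 was lower in the diabetic cells, at 9979 against 21492 CPM, a ratio of 0.464 (0.443 to 0.486), and 0.522 in the remaining neutrophils. Per cell, Lcn2 ran from 0 to 577 UMIs per 10000 in the 33 diabetic cells, median 67.0, and from 22.7 to 787 in the 107 normoglycemic cells, median 223, so the cells overlapped widely. Chil1, a chitinase-like glycoprotein, was lower at 222 against 731 CPM, a ratio of 0.304 (0.219 to 0.413). The peptidoglycan recognition protein Pglyrp1 was higher at 707 against 179 CPM, a ratio of 3.96 (3.08 to 5.08), and so were Anxa1 at 2.80 (2.33 to 3.36) and haptoglobin, Hp, at 1.83 (1.598 to 2.09). The neutrophil collagenase Mmp8 stood at 1320 against 62.0 CPM, a ratio of 21.3 (15.3 to 30.2), in 24 diabetic and 8 normoglycemic cells. Of 13 secondary granule genes outside the rule with at least 10 CPM, 4 were called higher and 2 lower, with a median log2 ratio of 1.49 (-0.81 to 2.88). In the remaining neutrophils the median was 0.47 (-0.27 to 0.83), and both intervals span 0. The rule's own genes, whose UMIs chose the cells, are given as a description: Ngp stood at 2585 CPM in diabetic and 1183 CPM in normoglycemic cells, Ltf at 217 and 216, and Camp at 69.2 and 318. Over all granule-gene-high cells the counts were 8 and 2 of 16 and the median was 1.73, but it was -0.12 once normoglycemic cells were weighted to the diabetic granule levels. That weighting raised the 2 normoglycemic cells with 100 or more granule UMIs from 1.83% to 19.5% of the cells. The weighted value therefore leans on those 2 cells.

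Of 13 tertiary granule and secretory vesicle genes, 6 were called higher and 0 lower in diabetic cells, with a median log2 ratio of 0.80 (-0.45 to 1.61), an interval that spans 0. Over all granule-gene-high cells 5 were called higher and 1 lower, and the median was 0.18. The 0.99 of all genes is no measure for it, being set by the UMI totals. Retnlg, a resistin-like protein of mature neutrophils, stood at 19687 CPM in diabetic and 1235 CPM in normoglycemic cells, a ratio of 15.9 (14.8 to 17.2), and at 5410 and 977 CPM in the remaining neutrophils. Per cell, it ran from 0 to 507 UMIs per 10000 in diabetic cells, median 206, and from 0 to 210 in normoglycemic cells, median 1.91. Over all granule-gene-high cells thinned to 1000 UMIs, 85.4% (70.8 to 94.4) of diabetic and 29.4% (21.0 to 38.8) of normoglycemic cells had a Retnlg UMI, against 1.24% and 0.694% of B cells (unthinned 90.2% and 56.0%, B cells 6.21% and 1.38%). The gelatinase Mmp9 stood at 405 against 57.6 CPM, a ratio of 7.04 (4.75 to 10.6). The metalloproteinase Adam8 at 3.05 (2.44 to 3.82), the lipopolysaccharide co-receptor Cd14 at 1.98 (1.86 to 2.10), the protease inhibitor Slpi at 1.77 (1.64 to 1.92) and Wfdc21 at 1.74 (1.61 to 1.89) were the others called.

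Receptors and adhesion molecules of neutrophil traffic went both ways, with 3 of 18 called higher and 6 lower. Cxcr2, the receptor for neutrophil-attracting CXC chemokines, stood at 702 against 216 CPM, a ratio of 3.25 (2.57 to 4.13). Ly6g, the surface protein used to identify mouse neutrophils, stood at 252 against 19.2 CPM, a ratio of 13.1 (7.04 to 26.3), with a UMI in 18 diabetic and 6 normoglycemic cells. Lower in diabetic cells were the adhesion molecule Icam1, at 69.2 against 563 CPM and a ratio of 0.123 (0.0666 to 0.209), and the integrin subunit Itgb1 at 0.263 (0.103 to 0.565). Cd24a stood at 0.408 (0.336 to 0.491), the tetraspanin Cd9 at 0.449 (0.402 to 0.501), and the hyaluronan receptor Cd44 and the platelet-activating factor receptor Ptafr at 0.543 (0.467 to 0.629) and 0.563 (0.472 to 0.666). The interferon-induced membrane protein genes Ifitm6, Ifitm3, Ifitm1 and Ifitm2 were called higher at ratios of 7.24, 3.06, 2.13 and 2.10, the 4 called of 21 measured interferon-stimulated genes, a list from which the rule had removed cells high in Rsad2 and the Ifit genes.

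Of 26 inflammatory genes, 10 were called lower and 3 higher in diabetic cells, against 10 lower and 0 higher of 26 in the remaining neutrophils. The median log2 ratio was -0.74 (-1.63 to 0.0046), against -0.13 (-1.04 to 0.055) in the remaining neutrophils, and both intervals reach past 0. The immune checkpoint ligand Cd274 (PD-L1) stood at 59.3 CPM in diabetic and 905 CPM in normoglycemic cells, a ratio of 0.0655 (0.0337 to 0.115), with a UMI in 7 of 33 and 91 of 107 cells. In the remaining neutrophils it stood at 135 and 471 CPM. After thinning, 2.44% (0.0617 to 12.9) of all 41 diabetic and 56.0% (46.1 to 65.5) of all 109 normoglycemic granule-gene-high cells had a Cd274 UMI, against 1.86% and 3.12% of B cells (unthinned 19.5% and 85.3%, B cells 13.7% and 14.1%). The diabetic share rests on 1 cell, and its interval also covers the 10.3% of the remaining diabetic neutrophils. The cytokines Il1a and Tnf stood at ratios of 0.223 (0.180 to 0.275) and 0.247 (0.194 to 0.310), the interleukin 1 receptor antagonist Il1rn at 0.278 (0.242 to 0.318), and the macrophage-attracting chemokines Ccl3 and Ccl4 both at 0.324. Ccl3 reached 5803 CPM in diabetic and 17936 CPM in normoglycemic cells. The NF-kB inhibitor Nfkbia stood at 0.481 (0.450 to 0.515) and the mitochondrial superoxide dismutase Sod2 at 0.238 (0.183 to 0.305), and Ccl9 and Hcar2 were the other members called lower. Il1b was higher in diabetic cells by less than 1.5-fold and so not called, at 16894 CPM against 13947 CPM in normoglycemic cells. Its level in the remaining neutrophils was 27454 CPM in the diabetic and 22164 CPM in the normoglycemic library. Cxcl2 was not called either, at 47212 and 64775 CPM. The decoy receptor Il1r2 at 2.90 (2.36 to 3.57), Ccl6 at 2.42 (2.15 to 2.72) and oncostatin M (Osm) at 1.94 (1.52 to 2.46) were the 3 members called higher.

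Of 16 genes of cell survival and death, 7 were called lower and 0 higher, while 9 were not called. The median log2 ratio was -1.03 (-2.49 to 0.30), an interval that spans 0. In the remaining neutrophils it was -0.53 (-1.12 to -0.049), with 5 of 16 called lower and 0 higher. The anti-apoptotic A1 genes are near-identical copies, so their counts may be split between them. Bcl2a1a had 0 UMIs in the 33 diabetic cells and 129 in the 107 normoglycemic cells, Bcl2a1d 2 and 86, and Bcl2a1b 26 and 497, a ratio of 0.175 (0.113 to 0.260). The BH3-only gene Bcl2l11 stood at 0.407 (0.312 to 0.524), the caspase 8 inhibitor Cflar at 0.353 (0.264 to 0.464) and Casp4 at 0.288 (0.173 to 0.456), and Bax, a pore-forming death protein, had 2 UMIs against 61, so both pro-survival and pro-death members were among the lower ones. The transcription factor Klf2 was lower at 573 against 1952 CPM, a ratio of 0.294 (0.241 to 0.355), the called gene of 9 measured regulators of granulopoiesis. Cebpb, which drives emergency granulopoiesis, was not called at 1.13 (1.06 to 1.21).

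Other leading lower genes were Plet1, with 0 UMIs in 33 diabetic cells and 334 UMIs in 37 of 107 normoglycemic cells, and the protease inhibitor cystatin B, Cstb, at 252 against 2806 CPM and a ratio of 0.0898 (0.0666 to 0.119). The remaining neutrophils showed Plet1 at 10.9 against 182 CPM and Cstb at 387 against 1342 CPM. Fnip2, Sh3bp5, Zeb2, Bri3, Rest, coagulation factor 10 (F10), Tnfrsf26 and Tnip1 followed, none with more than 20 diabetic UMIs. Among leading higher genes, Rdh12 stood at 840 against 28.1 CPM in 23 diabetic and 9 normoglycemic cells, and Prok2, a chemoattractant of neutrophils, at 598 against 75.3 CPM in 13 and 14 cells. S100a11 was higher at 5066 against 1276 CPM, a ratio of 3.97 (3.62 to 4.35). Csta3 (52 of 71 UMIs) and Serpinb2 (40 of 73) came mostly from 1 diabetic cell.

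Some differences rested on single cells. One diabetic cell with 8 Ltf and 0 Ngp UMIs held 534 of 571 UMIs of the salivary gland gene Dcpp1 and 132 of 142 of Wfdc18, with 20 UMIs of the epithelial marker Bpifa2. Dcpp1 stood at 388 against 1.12 CPM in the remaining neutrophils and at 4236 against 1.91 CPM outside the gate. Another, with 17 Ltf and 2 Ngp UMIs, held 78 of 80 UMIs of the mucin Muc5b, had 11.3% mitochondrial UMIs and supplied 75.6% of the mitochondrially encoded UMIs of the 33 diabetic cells. That list had 5 of 12 genes called higher and a median log2 ratio of 0.92, against -0.46 in the remaining neutrophils, while the median cell had 0.244% mitochondrial UMIs in the diabetic and 0.323% in the normoglycemic library. Nuclear-encoded respiratory chain genes had 3 of 50 called higher and a median log2 ratio of 1.44, against 0.43 in the remaining neutrophils. Most of that list was thus not called. Ribosomal protein genes had 0 higher and 1 lower of 84 with a median of 0.29, against 0.026. Over all granule-gene-high cells, with diabetic cell 8, the respiratory chain and ribosomal medians were 2.20 and 2.00.

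Markers of other cell types were compared between the libraries for the granule-gene-high cells as a whole. All 5 B-cell markers were at 0 in the diabetic cells and together stood at 91.7 CPM in the normoglycemic cells, against 98.7 and 226 CPM in the cells outside the gate. Epithelial markers summed to 247 CPM in the diabetic and 5.47 CPM in the normoglycemic cells, with 1 and 4 of 6 at 0. Of the 91 epithelial UMIs of the diabetic cells, 75 lay in those with 5 to 9 granule UMIs. Dendritic cell and MHC class II markers summed to 119 and 636 CPM, with 3 and 2 of 7 at 0. Macrophage markers stood at 136 and 164 CPM, against 4176 and 4804 outside the gate. The gate's limit of 2 UMIs of C1qa, C1qb and C1qc fixed that contrast in part, so it tests nothing. T and NK markers stood at 160 and 78.0 CPM, with 5 and 1 of 7 at 0. Monocyte markers stood at 529 and 84.9 CPM, with 2 and 1 of 5 at 0. Of these monocyte UMIs, 155 of 195 in the diabetic library lay in the cells with 100 or more granule UMIs, and Ly6c2, a member of that list, supplied 191. The part of other cell types in the differences above was not tested. Fewer transcripts per cell and fewer transcribing cells cannot be told apart in the summed values.

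**Figure D4:**
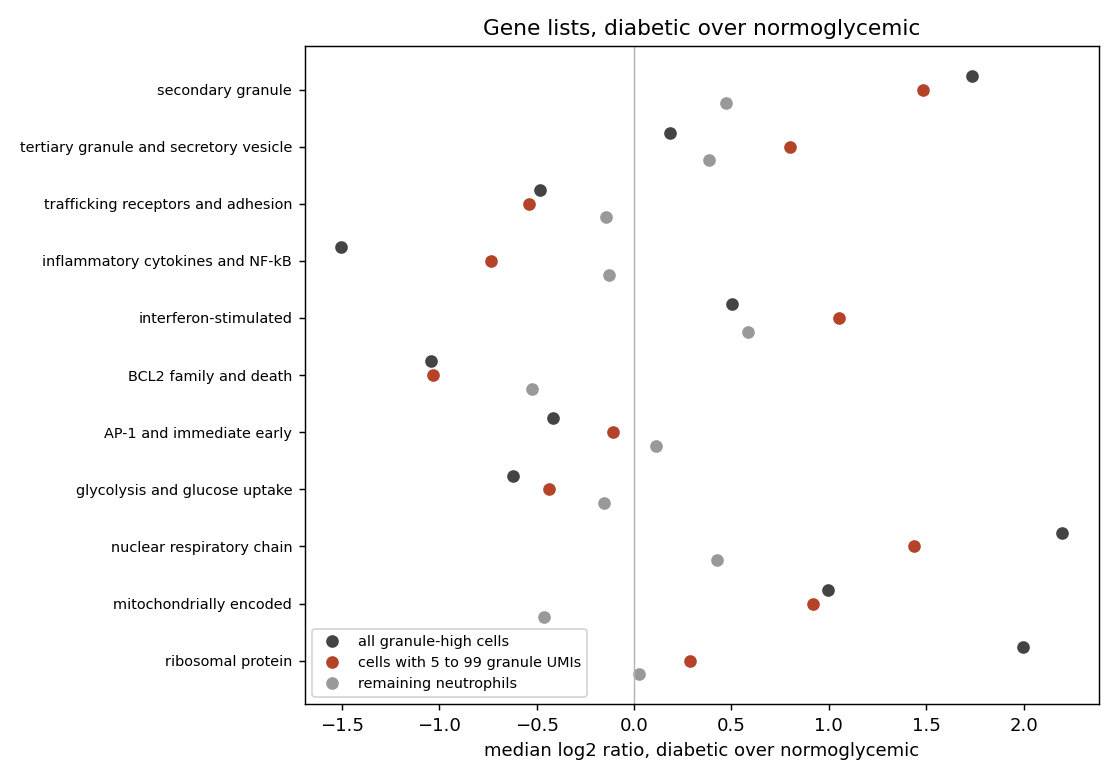
Median log2 ratio, diabetic over normoglycemic, of the genes of each list with at least 10 CPM in either library, for all granule-gene-high cells (dark), cells with 5 to 99 granule UMIs (red) and the remaining neutrophils (grey). The inflammatory list lies at -1.51, -0.74 and -0.13, and the secondary granule list at 1.73, 1.49 and 0.47. Intervals are not drawn, and for both lists those of the red and grey sets reach past 0.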

How the data were processed

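Droplet-based 3' single-cell RNA-seq (Chromium v3) was used on sorted gingival cells of 2 libraries. The authors made the deposited UMI counts per gene and cell with Cell Ranger on mm10. The processing notes of the submitters name version 6.0.2, whereas a file header names 4.0.0; the annotation release is not given in the sources used here. The deposited matrices held 32285 genes and 4 antibody capture features, and the antibody features were kept out of every comparison.

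Cells were chosen by the rule given at the start of the report. The members and the gene lists were chosen with earlier results of these data known. Counts were summed per library, scaled to CPM and compared as ratios, with the interval of the exact binomial test conditional on the summed count. A pseudocount of 0.5 counts entered every log2 ratio. Levels had exact Poisson intervals, shares exact Clopper-Pearson intervals, and differences of shares Newcombe's interval. List medians had intervals read from the ranked log2 ratios of their members. No p-values were computed, since the 2 libraries have no replicates. Doublets were not called; an alternative left out the deepest 5% of neutrophil-gate cells.

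Named genes were the first 12 called in each direction by the interval bound nearer to 1, with at least 0.5 times the CPM of cells outside the gate. The first 15 by the lesser ratio over remaining neutrophils in both libraries, and the mirrored 15 lower ones, were taken too, as were granule and granulopoiesis genes; the same ranking was applied to cells with 5 to 99 granule UMIs. Other genes are members of the gene lists, or were named after their values were seen (S100a11 and genes called in both libraries). Python 3.11.15, numpy 2.4.6, scipy 1.17.1, pandas 2.3.3, matplotlib 3.10.9, R 4.3.3 and edgeR 4.0.16 (TMM factors only) were used, and the calling step was tested on simulated data. Alternatives are given in the closing section. A member of the trafficking list is not reported here.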

Additional observations from a re-analysis of the deposited data

Results flagged for a closer look

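Antibody capture features, which no comparison above uses, had 134 UMIs in the 41 diabetic and 2367 UMIs in the 109 normoglycemic granule-gene-high cells, with a median of 3 and 8 per cell. What the 4 antibodies mark is not given in the sources used here, and no cells known to lack the targets set a background for them, so they are listed only because UMIs were present.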

How the results depend on the processing

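No paired analysis was possible because each condition has 1 library, and no library could be left out for the same reason. Precision was limited by the 41 diabetic cells, of which 1 held 19.7% of the UMIs. Over all alternatives, 106 of the main values stayed within their range, 58 moved and 4 changed direction, and of the single genes and minor lists 706 stayed, 173 moved and 18 changed direction. The cause was not tested.

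The share difference of -1.32 points became -0.264 at 10 or more granule UMIs (diabetic 0.593%, normoglycemic 0.857%), 0.149 at 20 or more (0.374% and 0.224%), 0.135 at 100 or more (0.176% and 0.0408%) and -0.816 at 10 per 10000 UMIs. Genes called higher, diabetic over normoglycemic (359), were 193 at 20 or more granule UMIs, 125 without the deepest 5% of cells, 59 in cells called male, 121 at 5 to 99 granule UMIs, 159 without the deepest cell of each library, 225 with TMM, 169 with median-ratio scaling, 1123 with no minimum level and 190 with normoglycemic cells weighted to the diabetic strata. Genes called lower (337) were 221 at 10 or more, 89 at 20 or more, 217 without the deepest cells, 128 in male cells, 223 at 5 to 99, 633 with TMM, 714 with median-ratio scaling and 180 with weighting. The secondary granule median (1.73) was 0.51 at 20 or more, 2.61 without the deepest cells, -0.25 in male cells and -0.12 with weighting. The inflammatory median (-1.51) was -0.65 without the deepest cells, -0.69 in male cells, -0.74 at 5 to 99, -2.49 with median-ratio scaling and -0.78 with every cell weighted the same. The cell cycle median (1.75) was -0.18 at 20 or more, -0.19 without the deepest cell of each library and -0.78 with weighting, and the mitochondrially encoded median (0.99) was -0.54 without the deepest cells. The ratios of Cxcl10 and Vcam1 became 0, Cxcl10 without the deepest 5% of cells and Vcam1 without the deepest cell of each library. Between the libraries, median-ratio scaling amounted to setting raw UMI counts side by side, as described above.

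Against the remaining neutrophils, diabetic genes called higher (269) were 35 without the deepest cells, 28 in male cells, 38 at 5 to 99, 144 with TMM, 138 with median-ratio scaling and 1729 with no minimum, and those lower (275) were 427 at 20 or more, 79 without the deepest cells, 69 in male cells, 66 at 5 to 99, 920 with TMM and 946 with median-ratio scaling. The diabetic secondary granule median (2.33) was 0.54 in male cells and 0.86 at 5 to 99. The diabetic inflammatory median (-1.46) was -2.47 at 20 or more, -0.78 without the deepest cells, -0.66 in male cells, -0.69 at 5 to 99, -2.38 with TMM and -2.43 with median-ratio scaling. In male diabetic cells the respiratory chain median was -0.017 and the ribosomal median -0.74, which was -0.20 at 5 to 99. Normoglycemic genes called higher (99) were 63 at 10 or more, 31 at 20 or more and 279 with no minimum, and those lower (161) were 247 without the deepest cells and 265 with no minimum. The normoglycemic secondary granule median (1.1998) was 0.072 at 5 to 99. Other normoglycemic medians that changed direction were cell cycle (-0.47 without the deepest cells, -0.50 in male cells, -0.67 at 5 to 99), respiratory chain (0.25 at 10 or more, 0.86 at 20 or more), mitochondrially encoded (0.11 without the deepest cells), and, at 10 or more, FOXO and insulin signalling (0.10), unfolded protein response (0.084) and ribosomal protein (0.43).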
